A study of Homo sapiens with 6 samples.

Results

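The 10 genes described here encode sensors of foreign or double-stranded RNA and the proteins that carry their signal: RIGI, IFIH1, DHX58, TLR3, EIF2AK2, MAVS, TICAM1, TRAF3, TBK1 and IRF3. They were chosen by name as a functional group, with earlier results of these data known. Counts set beside the share of all tested genes are therefore a description and no test of the group. All 10 were found among the 20036 genes of the deposited table. They passed the minimum for testing, a mean of at least 1 FPKM over all libraries. RNA came from KGN, an established human granulosa tumour cell line labelled WT, in which OGT, the gene of O-GlcNAc transferase, was knocked down. The groups were siOGT1 and siOGT2 (different siRNAs against OGT) and siNC (the control siRNA), with 2 libraries each. Cells of all 3 groups were transfected with siRNA using Lipofectamine 3000 and harvested 48 hours later, and no untransfected cells were analysed here. Nothing in the labels says that the libraries of a group came from separate cultures. The p-values set each change against the spread between these libraries, estimated in part over all tested genes. That spread may be technical.

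RIG-I (RIGI) and MDA5 (IFIH1) are helicases that bind viral or other double-stranded RNA in the cytosol and signal through MAVS on mitochondria. LGP2 (DHX58) is a related helicase without signalling domains that tunes both, and TLR3 binds double-stranded RNA in endosomes and signals through TRIF (TICAM1). Both routes meet at TRAF3 and the kinase TBK1, which activates the transcription factor IRF3 and with it the interferon beta gene. PKR (EIF2AK2) binds the same kind of RNA and slows translation. Interferon in turn raises transcription of the sensors in many cell types.

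The knockdown and the cells were checked first. OGT stood at 13.8 and 12.9 FPKM in siOGT1 libraries and 14.3 and 14.7 in siOGT2 libraries, against 22.4 and 23.4 in siNC libraries. It fell to 58.3% of the siNC mean with siOGT1 and 63.2% with siOGT2. The siOGT1 and siOGT2 levels of OGT were not called different (log2 difference -0.11, limma adjusted p = 0.123). Of 10 granulosa markers 7 had a mean of at least 1 FPKM, with FOXL2 at 5.92 in siOGT1, 5.83 in siOGT2 and 5.34 in siNC, whereas INHA, WT1 and AMHR2 lay below 1. Of 10 leukocyte markers none reached 1 FPKM, and LYZ and FCGR3A were listed at 0 in all libraries. The leukocyte markers summed to 0.239 and 0.118 FPKM in siOGT1, 0.346 and 0.190 in siOGT2, and 0.411 and 0.531 in siNC. Markers of fibroblasts (4 of 6) and of epithelium (2 of 6) also reached 1 FPKM, and of endothelium 1 of 6. Fibroblast markers summed to 315 and 295 FPKM in siOGT1, 303 and 305 in siOGT2, and 292 and 278 in siNC, of which COL1A1 made up 286, 281 and 264 on average. Epithelial markers summed to 19.9 and 18.6 FPKM in siOGT1, 21.0 and 23.2 in siOGT2, and 19.3 and 18.0 in siNC, mostly KRT14 at 14.99, 18.16 and 15.03 on average. The part of these markers in the results was not tested. In bulk RNA, fewer cells of a type and less RNA per cell cannot be told apart.

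All 5 RNA sensors fell with both siRNAs, and more with siOGT2 than with siOGT1. Among the other genes TRAF3 rose, to 123% of siNC with siOGT1 and 125% with siOGT2. MAVS, TICAM1, TBK1 and IRF3 stood between 86.3% and 117% of siNC with either siRNA. At an adjusted p under 0.05 over 10547 tested genes, 5 of the 10 genes were lower and 1 higher with siOGT1, where 17.6% of all tested genes were called, 8.1% lower and 9.51% higher. With siOGT2, 6 were lower and 2 higher, against a background of 35.5% called, 13.4% lower and 22.1% higher. For the mean of both siRNAs against siNC, 6 were lower and 1 higher, beside 31.1% of all tested genes called, 11.8% lower and 19.4% higher. The median log2 fold change of the 10 genes was -0.22 with siOGT1 and -0.44 with siOGT2, beside 0.03 and 0.05 over all tested genes. Both siRNAs are set against the same siNC libraries. Libraries of siOGT1 and siNC did not overlap for 7 of the 10 genes, 6 lower and 1 higher, beside 60.4% of all tested genes (21.3% lower and 39.2% higher). Those of siOGT2 and siNC did not overlap for 9, 7 lower and 2 higher, beside 70.1% (25.1% lower and 45% higher). Between siOGT1 and siOGT2 there was no overlap for 8, 1 lower and 7 higher in siOGT1, beside 58.6% (30.9% lower and 27.7% higher). Every siOGT2 library lay below every siOGT1 library, and every siOGT1 library below every siNC library, for 6 of the 10 genes (RIGI, IFIH1, DHX58, TLR3, EIF2AK2 and TBK1), an order seen in 7.19% of all tested genes.

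**Figure D1:**
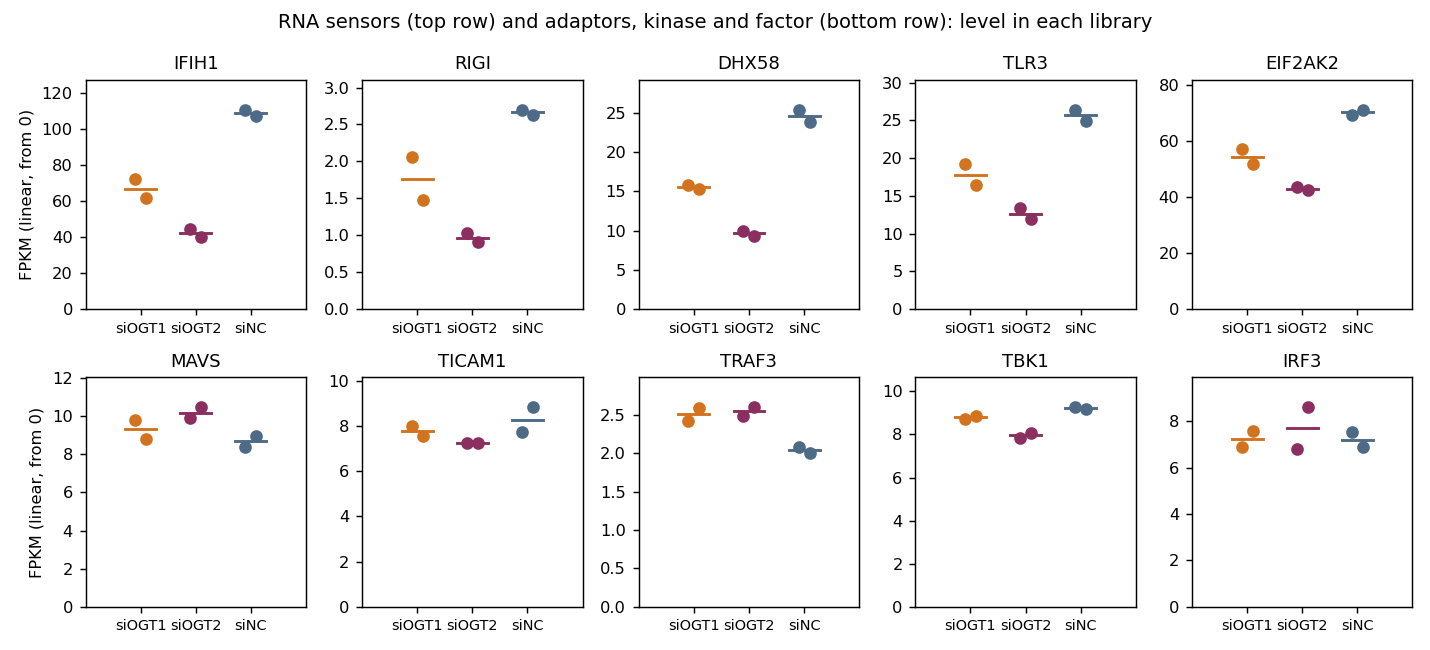
Deposited FPKM (linear axis from 0) of each gene in each library, with siOGT1, siOGT2 and siNC from left to right; points are libraries and bars the mean of 2. In the top row (the 5 sensors) siNC libraries are highest and siOGT2 libraries lowest, for example 42.4 FPKM in siOGT2 and 109 in siNC for IFIH1. In the bottom row the groups lie closer together, and TRAF3 is lowest in siNC.

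IFIH1 (ENSG00000115267, chromosome 2, 162267079 to 162318703, minus strand) had the highest level of the 10 genes in siNC and the largest fall on the log2(FPKM + 1) scale. Its level was 72.2 and 61.6 FPKM in siOGT1 and 44.6 and 40.2 in siOGT2, against 111 and 107 in siNC. Libraries of different groups did not overlap. MDA5 mRNA thus fell to 61.4% of the siNC mean with siOGT1 (log2 fold change -0.70, SE 0.0689, limma adjusted p = 0.000153) and to 38.9% with siOGT2 (-1.34, SE 0.0689, adjusted p = 1.47e-06). The difference between the siRNAs was itself called (siOGT1 minus siOGT2 0.64, adjusted p = 0.000301). Among 10547 tested genes IFIH1 had the 28th largest fall in the mean of both siRNAs.

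RIGI (ENSG00000107201, chromosome 9, 32455705 to 32526324, minus strand) was far lower in level. It stood at 2.05 and 1.48 FPKM in siOGT1, 1.02 and 0.911 in siOGT2, and 2.70 and 2.63 in siNC, from 391 and 327 reads, 192 and 158 reads, and 563 and 547 reads. Both siOGT1 libraries lay below siNC, but they were further apart than those of the other groups. The mean was 66.2% of siNC with siOGT1 (log2 fold change -0.41, SE 0.0955, adjusted p = 0.0169) and 36.3% with siOGT2 (-0.90, SE 0.0955, adjusted p = 0.000153). Adding 1 before the logarithm shrinks the change of a gene at this level: with 0.1 added in place of 1, the siOGT2 value was -1.37. Without siOGT1 replicate 2 the siOGT1 value moved to -0.26 and the call ended (adjusted p = 0.0853). It also ended, with the value little moved or the same, without siNC replicate 1 (-0.40, adjusted p = 0.0962), siNC replicate 2 (-0.43, 0.0778) or the filter on low values (-0.41, 0.0867), and the call of the difference between the siRNAs (0.48, adjusted p = 0.00865) ended without siOGT2 replicate 2 (0.066) or the filter (0.0638).

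DHX58 (ENSG00000108771, chromosome 17, 42101404 to 42112733, minus strand), the gene of LGP2, held 15.9 and 15.4 FPKM in siOGT1, 9.97 and 9.35 in siOGT2, and 25.4 and 23.9 in siNC. The groups were well apart, with little spread within siOGT1. It fell to 63.3% with siOGT1 (log2 fold change -0.63, SE 0.0457, adjusted p = 2.92e-05) and to 39.2% with siOGT2 (-1.27, adjusted p = 7.05e-07). The siRNAs differed by 0.64 (adjusted p = 3.77e-05). The 3 helicase genes of the RIG-I family therefore stood at 61.4% to 66.2% of siNC with siOGT1 and at 36.3% to 39.2% with siOGT2.

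TLR3 (ENSG00000164342, chromosome 4, 186069152 to 186088069, plus strand), the endosomal receptor, held 19.2 and 16.4 FPKM in siOGT1, 13.4 and 11.9 in siOGT2, and 26.4 and 24.9 in siNC. It fell to 69.4% with siOGT1 (log2 fold change -0.51, SE 0.0713, adjusted p = 0.00125) and to 49.3% with siOGT2 (-0.97, adjusted p = 1.36e-05), and the siRNAs differed by 0.46 (adjusted p = 0.00246). EIF2AK2 (ENSG00000055332, chromosome 2, 37099210 to 37157065, minus strand), the gene of PKR, had 57.1 and 51.7 FPKM in siOGT1, 43.4 and 42.3 in siOGT2, and 69.2 and 71.1 in siNC. Its fall was the smallest of the sensors in percent of siNC. It fell to 77.6% with siOGT1 (log2 fold change -0.36, SE 0.0447, adjusted p = 0.000597) and 61.1% with siOGT2 (-0.70, adjusted p = 5.12e-06), with 0.34 between the siRNAs (adjusted p = 0.00107). Exons of EIF2AK2 share 35 bases with GPATCH11 on the opposite strand, whose mean was 7.67 FPKM in siOGT1, 9.44 in siOGT2 and 4.77 in siNC. They also share 401 bases with the processed pseudogene AC007899.1 on the opposite strand, which has no values here.

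In all, 5 genes were called between the siRNAs, all 5 sensors and all higher with siOGT1, beside 16.6% of tested genes called in siOGT1 against siOGT2, 8.35% higher and 8.24% lower. TBK1, also higher with siOGT1, did not pass there but passed in 5 of 17 alternative analyses. In siOGT1 and in siOGT2 alike, the library of replicate 2 was the lower one for every sensor, with the widest gap relative to its level for RIGI in siOGT1. Summed over the 5 sensors the level was 166 and 147 FPKM in siOGT1, 112 and 105 in siOGT2, and 235 and 230 in siNC. Over the other 5 genes the sum was 35.8 and 35.4 FPKM in siOGT1, 34.3 and 37.0 in siOGT2, and 35.0 and 35.9 in siNC, so these sums overlapped between groups.

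**Figure D2:**
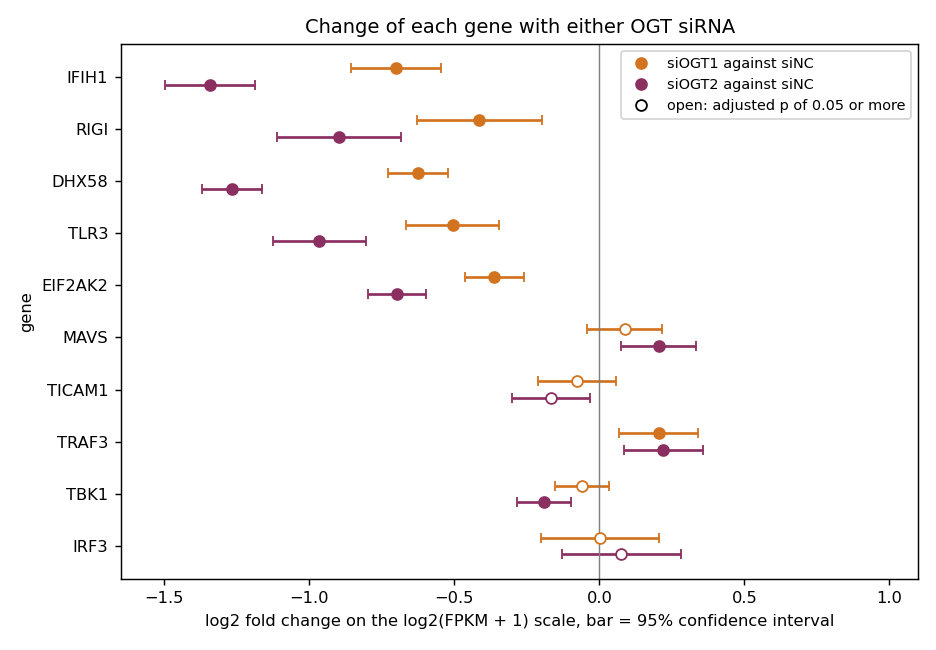
Log2 fold change of each gene on the log2(FPKM + 1) scale for siOGT1 against siNC (orange, upper point) and siOGT2 against siNC (purple, lower point), with 95% confidence intervals; filled points passed at an adjusted p under 0.05. The sensors from IFIH1 (-0.70 and -1.34) to EIF2AK2 (-0.36 and -0.70) lie left of 0, and the other 5 genes lie between -0.19 and 0.22.

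Promoter sequence was looked at because the sensors fell together. RefSeq's promoter table, with 250 bases before and 50 after each gene's start, held 8 of the 10 genes and not DHX58 or IRF3. The core of the interferon-stimulated response element, the site bound by the interferon-activated factor ISGF3 and by IRF proteins, was searched on both strands as GAAA, any 2 bases, then GAAA again. EIF2AK2, IFIH1 and TLR3 held it, 3 of 8, beside 3.57% of all 35116 promoters and 3.06% of those of 8693 tested genes. The matches stand here in capitals within 30 bases of the gene's own strand, and TTTC at both ends of the capitals marks the element read from the other strand.
EIF2AK2, chr2:37156967-37156996, minus strand: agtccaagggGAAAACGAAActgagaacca
IFIH1, upstream match, chr2:162318824-162318853, minus strand: gagaattcgcTTTCCTTTTCtgtttcccgc
IFIH1, match near the start, chr2:162318686-162318715, minus strand: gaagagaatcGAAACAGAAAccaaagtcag
TLR3, chr4:186069142-186069171, plus strand: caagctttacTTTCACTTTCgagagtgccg
The EIF2AK2 match ran from -6 to 4 relative to the start, that of TLR3 from -4 to 6, and those of IFIH1 from -159 to -150 and from -21 to -12. A further IFIH1 match, from -153 to -144, overlapped the upstream one by 4 bases. The STAT site TTCNNNGAA was in 1 of the 8 promoters, that of TLR3, and in 7.66% of all promoters. RIGI, MAVS, TICAM1, TRAF3 and TBK1 had neither motif in these windows. A match is a description of the letters and no test of binding.

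MAVS (ENSG00000088888, chromosome 20, 3846799 to 3876123, plus strand), the mitochondrial adaptor of RIG-I and MDA5, held 9.80 and 8.81 FPKM in siOGT1, 9.88 and 10.5 in siOGT2, and 8.40 and 8.98 in siNC. It rose with siOGT2, to 117% of siNC (log2 fold change 0.21, 95% interval 0.08 to 0.33, adjusted p = 0.0219), and did not pass with siOGT1 (0.09, adjusted p = 0.329), where libraries overlapped those of siNC. The siOGT2 call ended with no filter on low values (adjusted p = 0.0752), after TMM scaling, a trimmed mean over genes (0.16, adjusted p = 0.0661), without siNC replicate 1 (0.132) and without siOGT2 replicate 2 (0.129). TICAM1 (ENSG00000127666, chromosome 19, 4815932 to 4831704, minus strand), which encodes TRIF, the adaptor of TLR3, held 7.97 and 7.57 FPKM in siOGT1, 7.24 and 7.25 in siOGT2, and 7.71 and 8.82 in siNC. Neither siRNA passed, with -0.08 for siOGT1 (adjusted p = 0.419) and -0.17 for siOGT2 (95% interval -0.30 to -0.03, adjusted p = 0.0568). TICAM1 with siOGT2 passed in 5 of 17 alternatives. Among these, with all 6 libraries, were TMM scaling (-0.21, adjusted p = 0.0272), quantile normalization (-0.19, 0.0366) and equal sums of FPKM (-0.19, 0.0435). A stricter filter on low values was another (-0.17, adjusted p = 0.0461). The siOGT2 value of TICAM1 moved to -0.25 without siNC replicate 1, the lower of the siNC libraries, and to -0.08 without siNC replicate 2.

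TRAF3 (ENSG00000131323, chromosome 14, 102777476 to 102911500, plus strand), a ubiquitin ligase that links both adaptors to the kinase step, was the gene of the group that rose with both siRNAs. It held 2.43 and 2.59 FPKM in siOGT1, 2.49 and 2.60 in siOGT2, and 2.08 and 2.004 in siNC, with no overlap between either siRNA and siNC. The mean was 123% of siNC with siOGT1 (log2 fold change 0.20, SE 0.0607, adjusted p = 0.0460) and 125% with siOGT2 (0.22, SE 0.0607, adjusted p = 0.0205). These calls were close to the threshold. With 0.1 added in place of 1 before the logarithm, the TRAF3 values were 0.28 for siOGT1 and 0.30 for siOGT2. With siOGT1 TRAF3 passed in 5 of 16 alternatives, and leaving out any library ended the call (adjusted p between 0.0605 and 0.204). With siOGT2 it passed in 11 of 16, and the call ended without either siNC replicate (0.0603 and 0.0988) or either siOGT2 replicate (0.0516 and 0.1).

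TBK1 (ENSG00000183735, chromosome 12, 64451880 to 64502108, plus strand), the kinase that phosphorylates IRF3, held 8.74 and 8.85 FPKM in siOGT1, 7.85 and 8.06 in siOGT2, and 9.26 and 9.18 in siNC. It fell to 86.3% of siNC with siOGT2 (log2 fold change -0.19, SE 0.0414, adjusted p = 0.00720), a call kept under all 17 alternatives. With siOGT1 it was at 95.4% and did not pass (-0.06, adjusted p = 0.343), and siOGT1 against siOGT2 did not pass either (0.13, adjusted p = 0.0648). The difference between the siRNAs passed in 5 of the 17 alternatives, among them TMM scaling (0.14, adjusted p = 0.043) and quantile normalization (0.14, adjusted p = 0.0412). TBK1 shares 702 exon bases with the antisense gene AC135279.3, which has no values here, and the strand setting was not stated. IRF3 (ENSG00000126456, chromosome 19, 49659569 to 49665875, minus strand) held 6.87 and 7.58 FPKM in siOGT1, 6.79 and 8.60 in siOGT2, and 7.53 and 6.89 in siNC, with all groups overlapping. Its log2 fold change was 0.00 with siOGT1 (95% interval -0.20 to 0.21, adjusted p = 0.990) and 0.08 with siOGT2 (-0.13 to 0.28, adjusted p = 0.545). Changes within these intervals remain possible. IRF3 shares 734 exon bases with BCL2L12 on the opposite strand (3.45 FPKM in siOGT1, 3.01 in siOGT2 and 2.91 in siNC), and without a strand setting reads of the overlap cannot be told apart.

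The order of the levels depended on gene length as well as on reads. The lengths recovered from the FPKM values exceeded the merged exons of GENCODE 29 for 7 of the 10 genes, most for RIGI (10345 against 4353 bases) and TBK1 (14716 against 4762). If its added bases collect no reads, a long gene model lowers a gene's FPKM in all libraries alike. The ratios of FPKM between groups then stay as they are. Whether the added bases collected reads was not tested. On the log2(FPKM + 1) scale a lowered FPKM shrinks the change, most for a gene at a low level such as RIGI. In siNC the mean levels at deposited lengths ran IFIH1 109, EIF2AK2 70.2, TLR3 25.6, DHX58 24.7, TBK1 9.22, MAVS 8.69, TICAM1 8.26, IRF3 7.21, RIGI 2.66 and TRAF3 2.04 FPKM. Libraries overlapped between TLR3 and DHX58 and between MAVS and TICAM1, and between no other neighbours in that order. IFIH1 exceeded RIGI 40.9-fold in siNC at the deposited lengths, and 17.6-fold with the same reads set over GENCODE 29 lengths. In that rescaling RIGI stood at 6.33 and TBK1 at 28.5 FPKM in siNC. Any reads in the added bases are still counted there, so these are not levels of the GENCODE 29 exons alone. In siOGT2 EIF2AK2 and IFIH1 came level, at 42.9 ± 0.737 and 42.4 ± 3.12 FPKM with overlapping libraries (SD, n = 2), and MAVS at 10.2 ± 0.412 overlapped DHX58 at 9.66 ± 0.440. IFIH1 made up 43.4% and 42.0% of the summed sensor FPKM in siOGT1, 39.7% and 38.4% in siOGT2, and 47.2% and 46.7% in siNC.

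Lists of the surrounding pathway, also chosen with earlier results of these data known, were followed in the mean of both siRNAs against siNC. In that contrast 11.8% of all tested genes were lower and 19.4% higher. Of 14 tested genes of other nucleic acid sensors 10 fell and none rose, with a median log2 fold change of -0.54 beside 0.04 for all tested genes. OAS1, an oligoadenylate synthetase gene switched on by interferon, stood at 20.7 FPKM in siOGT1, 12.1 in siOGT2 and 33.9 in siNC (-1.05, adjusted p = 2.78e-06). IFIT1, which binds RNA lacking the host cap methylation, stood at 190.2, 114 and 286 FPKM in the same order (-0.95), OAS3 at 39.2, 25.3 and 60.4 (-0.92), and IFIT5 at 32.1, 30.4 and 49.7 (-0.65). DHX9, DHX36 and NLRP1 did not pass (adjusted p from 0.398 to 0.734), and these were named for that after their values were seen.

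Among 13 helpers of RIG-I and MDA5, 6 fell and 1 rose (median 0.03), beside 11.8% lower and 19.4% higher among all tested genes. The helicase gene DDX60 fell by 0.72 on the log2 scale, the ubiquitin ligase gene TRIM25 by 0.58, the MHC class I regulator NLRC5 by 0.57 and the RNA-binding ZC3HAV1 by 0.55. TRIM25, which ubiquitinates RIG-I, stood at 32.4 FPKM in siOGT1, 26.0 in siOGT2 and 43.9 in siNC. The gene that rose was RNF135 (Riplet), the other ligase of RIG-I, at 13.3 FPKM in siOGT1, 13.2 in siOGT2 and 10.7 in siNC (0.28, adjusted p = 0.000259), a gene chosen after its values were seen. Of 10 tested brakes on RIG-I and MAVS, 3 fell and 2 rose (median -7.1e-05), beside 31.1% of all tested genes called, 11.8% lower and 19.4% higher. The share that rose, and not the share that fell, was near that of all tested genes. TNFAIP3 (A20) stood at 19.3 FPKM in siOGT1, 14.5 in siOGT2 and 25.7 in siNC (-0.59), while TAX1BP1 rose by 0.17 and NLRX1 by 0.15, a gene that did not pass with siOGT2 alone (0.13, adjusted p = 0.0655). The deubiquitinase gene CYLD fell in the mean (-0.17) and with siOGT2 (-0.27, adjusted p = 0.000251), and its value with siOGT1 was -0.08 (adjusted p = 0.108).

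Of 11 kinase module genes around TBK1 and the IKK complex, 2 fell and none rose (median 0.01), beside 31.1% of all tested genes called and 11.8% lower. These were AZI2, an adaptor of TBK1, at 5.04 FPKM in siOGT1, 4.26 in siOGT2 and 6.12 in siNC (-0.34, adjusted p = 0.00116), and OPTN, which binds TBK1 and ubiquitin (-0.09, adjusted p = 0.0336). OPTN fell with siOGT2 (-0.18, adjusted p = 0.00191), its value with siOGT1 was 0.01 (adjusted p = 0.872), and the siRNAs differed (adjusted p = 0.00281). Of 7 tested genes of the endosomal Toll-like receptors 3 fell and 1 rose (median 0.01), beside 11.8% lower and 19.4% higher. MYD88, the adaptor of the other endosomal receptors, stood at 21.6 FPKM in siOGT1, 18.7 in siOGT2 and 35.0 in siNC (-0.77, adjusted p = 1.51e-05), the chaperone gene UNC93B1 fell by 0.43 and the kinase gene IRAK1 rose by 0.15. The transporter gene SLC15A4 fell in the mean (-0.13, adjusted p = 0.0373) and with siOGT2 (-0.36, adjusted p = 0.000472), while its value with siOGT1 was 0.10 (adjusted p = 0.158), and the siRNAs differed (adjusted p = 0.000204). TLR8 and TLR9 were listed at 0 in all libraries and TLR7 had a mean of 0.0180 FPKM in siOGT1 and 0 in the other groups, so TLR3 was the endosomal RNA receptor with a level above 1 FPKM. Of 11 genes around PKR and eIF2alpha 3 fell and 2 rose (median -0.03), beside 11.8% lower and 19.4% higher among all tested genes. The phosphatase subunit gene PPP1R15A (GADD34) fell by 0.32, PRKRA (PACT, an activator of PKR) by 0.28 and PPP1R15B by 0.16, and DNAJC3, an inhibitor of PKR, rose by 0.22. With siOGT1 alone neither PRKRA (-0.20, adjusted p = 0.0580) nor PPP1R15B (-0.07, adjusted p = 0.259) passed.

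Downstream, all 7 tested interferons and IRF3 target genes fell (median -1.35), beside 11.8% of all tested genes lower, among them IFIT2 (-1.88), RSAD2 (-1.89), OASL (-1.68) and ISG15 (-1.26). IFNB1, the interferon beta gene, was chosen after its values were seen. It had 2.40 and 1.22 FPKM in siOGT1, 0.526 and 0.854 in siOGT2, and 2.60 and 2.49 in siNC, from 37 and 22 reads, 8 and 12 reads, and 44 and 42 reads. IFNB1 fell with siOGT2 (-1.08, adjusted p = 0.00138), did not pass with siOGT1 (-0.37, adjusted p = 0.168), and differed between the siRNAs (0.71, adjusted p = 0.0199). Its mean was 0.690 FPKM in siOGT2 and 2.55 in siNC, and at such levels adding 1 before the logarithm shrinks the change, as for RIGI. Of 10 tested genes of the interferon receptor, JAK-STAT and IRF factors 8 fell and none rose (median -0.50), beside the same 11.8% lower, with USP18 at -1.34, IRF7 at -0.94 and IRF1 at -0.69. With either siRNA alone 7 of the 10 fell. The receptor gene IFNAR1, chosen after its values were seen, was one of the 8, at 2.77 FPKM in siOGT1, 6.03 in siOGT2 and 5.79 in siNC. It fell with siOGT1 (-0.85, adjusted p = 1.63e-05) and not with siOGT2 (0.05, adjusted p = 0.527), and the siRNAs differed by -0.90 (adjusted p = 1.94e-05). IRF9, chosen likewise, fell in the mean (-0.22, adjusted p = 0.048) but did not pass with siOGT1 (-0.17, adjusted p = 0.2).

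**Figure D3:**
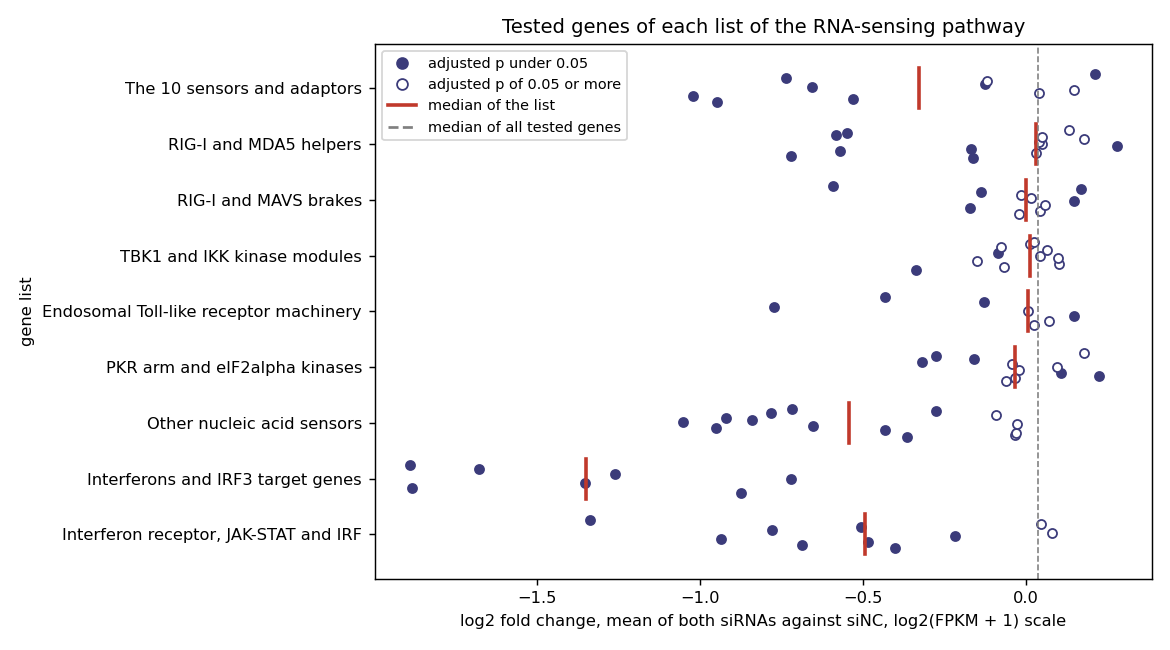
Log2 fold change of each tested gene (points, filled at an adjusted p under 0.05) for the mean of both siRNAs against siNC, by list; red bars are list medians and the dashed line the median of all tested genes, 0.04. The lists of other sensors (median -0.54), JAK-STAT and IRF genes (-0.50) and interferon outputs (-1.35) lie furthest left, and helpers, brakes and kinase modules have medians near 0.

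The genes nearest in profile were sought for the 7 members called in the mean of both siRNAs, as the smallest root-mean-square difference between log2(FPKM + 1) values over the 6 libraries, each centred on its own mean. With 6 libraries in 3 groups, such likeness rests mostly on the group means. IFIH1 lay nearest to OAS1 (0.0410, Pearson r 0.998) and MX1 (0.0429), an antiviral GTPase, and DHX58 to IRF7 (0.0340) and MX1 (0.0350). For TLR3 they were IFI44 (0.0287) and ZNFX1 (0.0361), for EIF2AK2 STAT2 (0.0187) and ZC3HAV1 (0.0220), and for RIGI SWT1 (0.0430) and TRIM69 (0.0452). TBK1 was nearest to SLAMF7 (0.00895) and LZTS2 (0.0114), and TRAF3 to TMEM14C (0.0136) and MRPL51 (0.0170). The small values for TBK1 and TRAF3 go with their small changes.

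**Figure D4:**
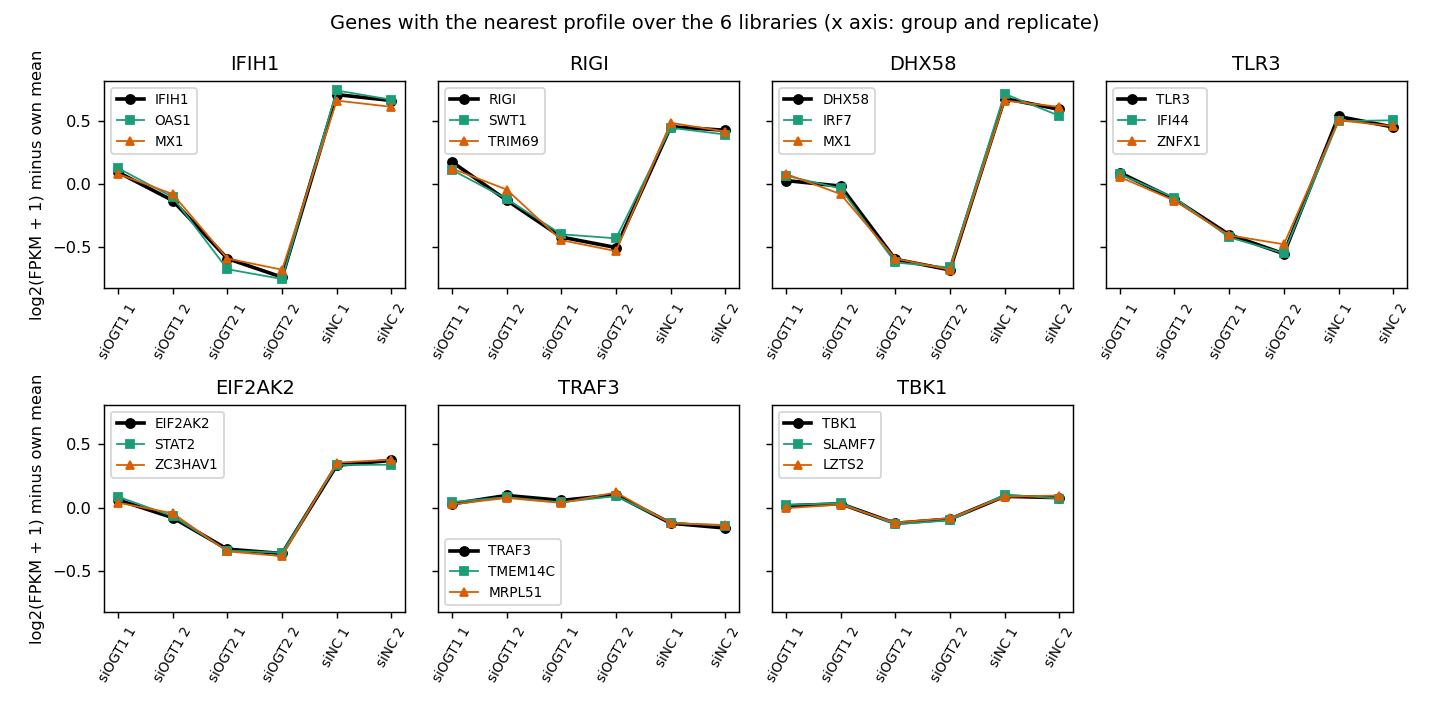
Log2(FPKM + 1) minus the gene's own mean over the 6 libraries (y axis) in siOGT1, siOGT2 and siNC libraries from left to right, for each called member (black) and its 2 nearest genes (green and orange). The sensors are highest in siNC and lowest in siOGT2, TRAF3 is lowest in siNC, and TBK1 is lowest in siOGT2.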

How the data were processed

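The members and gene lists were chosen with earlier results of these data known. The submitters' processing notes name cutadapt 1.15, HISAT2 and the build GRCh38; the counting program, gene annotation and strand setting were not stated there or in the labels. The authors deposited FPKM values (fragment counts scaled by gene length and by library size) for 20036 Ensembl genes in 6 libraries. Symbols came from a gene name table (20011 matched) and coordinates from GENCODE release 29 on GRCh38. Library totals and gene lengths were worked out from the FPKM values, in which 99.96% of tested genes gave whole reads within 0.01 in every library. The recovered totals ran from 16756649 to 21416489 reads. They give depth and lengths and served 1 alternative test. Where FPKM averaged 1 or more over the 6 libraries, a gene was tested (10547 genes) as log2(FPKM + 1). Group means were fitted in 1 linear model (limma 3.58.1 in R 4.3.3, empirical Bayes with an intensity trend, two-sided). It had 3 residual and 6.31 prior degrees of freedom, the latter from the spread over genes. A call needed an adjusted p under 0.05 (Benjamini-Hochberg, all tested genes), with all 6 libraries in each fit. All 10 members, OGT, up to 4 genes of each list by smallest p in the averaged effect of both siRNAs, and the 2 nearest profiles of each member called there are named, and other genes are marked as chosen after their values were seen. Results of some single genes of the lists are not reported here. Promoter sequences are RefSeq's (GRCh38.p14).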

Additional observations from a re-analysis of the deposited data

Results flagged for a closer look

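The effects of siOGT1 and siOGT2 on the same contrast with siNC differed for 5 genes by the test of the difference itself (limma, adjusted over 10547 genes). The siOGT1 effect minus the siOGT2 effect was 0.48 for RIGI (adjusted p = 0.00865), 0.64 for IFIH1 (0.000301), 0.64 for DHX58 (3.77e-05), 0.46 for TLR3 (0.00246) and 0.34 for EIF2AK2 (0.00107). Both siOGT1 libraries lay above both siOGT2 libraries for each of these genes. OGT itself was 13.3 FPKM in siOGT1 and 14.5 in siOGT2, a difference that did not pass (-0.11, adjusted p = 0.123).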

How the results depend on the processing

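IFIH1, DHX58, TLR3 and EIF2AK2 kept their calls in all 4 contrasts under every alternative that could be run, with adjusted p up to 0.0393. RIGI kept its siOGT2 call in all 16 alternatives. Without a filter on low values RIGI no longer passed with siOGT1 (adjusted p = 0.0867) or between the siRNAs (0.0638), and neither MAVS (0.0752) nor TRAF3 (0.0555) passed with siOGT2; RIGI and TRAF3 could not be tested at a mean FPKM of at least 5. Over 662 alternative values of single genes, 603 kept direction and side of the threshold, 32 lost and 15 gained a call, and 12 changed sign, all 12 for IRF3, TICAM1 and TRAF3 values that had not passed. For IRF3 with siOGT1 these were -0.028 under TMM scaling, -0.018 under quantile normalization and -0.0034 with equal sums. With each library left out in turn, IRF3 ranged from -0.060 to 0.064 with siOGT1, -0.075 to 0.23 with siOGT2, -0.036 to 0.11 for their mean and -0.22 to 0.077 between the siRNAs, TICAM1 with siOGT1 from -0.16 to 0.0098, and TRAF3 between the siRNAs from -0.049 to 0.017; the cause was not tested. Where 1 library of a group was left, it was assumed to vary like the other groups.

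Members called, 6 with siOGT1, 8 with siOGT2, 7 for the mean and 5 between the siRNAs, ranged over left-out libraries from 4 to 5, 6 to 8, 5 to 8 and 4 to 5, and over the other alternatives stayed within 1.5 times. The replicate number is no pairing in the labels, and deviations of same-numbered libraries correlated at -0.0218, -0.0262 and 0.0494. With the replicate block 5, 8, 7 and 5 members passed, and TRAF3 with siOGT1 did not (adjusted p = 0.0612). Over all genes, calls for the mean fell from 3284 to 1654 without siNC replicate 1 and 1655 without siNC replicate 2, with siOGT1 from 1857 to 1138 with no filter, 945 and 984 without siNC replicate 1 and 2, and 1239 and 1197 without siOGT1 replicate 1 and 2. With siOGT2 they fell from 3740 to 2327 and 2223 without either siNC replicate and 2222 without siOGT2 replicate 2, and between the siRNAs from 1750 to 1017 with no filter and 1068 and 816 without either siOGT2 replicate. Rescaling by TMM turned the balance of all calls (548 higher and 1008 lower with siOGT1, 1374 and 1865 with siOGT2, 1121 and 1652 for the mean, beside 1003 and 854, 2329 and 1411, and 2041 and 1243 as deposited) and left the direction of every called member.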
